A study of Caenorhabditis elegans with 14 samples.

Results

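Small RNA bound by NRDE-3 was set against total small RNA in embryos of the nematode Caenorhabditis elegans of the wild-type background N2 after cold shock. These were 2 of the 14 libraries of the series, 1 library on each side, so there was no replicate check and no p-value was computed. The libraries were chosen by their labels: the NRDE-3 library came from animals carrying 3xflag::gfp::nrde-3 in N2, and the total library from N2, for which no transgene is named. Both sets of animals were grown at 20 °C, and both samples were embryos kept for 12 h at 4 °C and then for 2 h at 20 °C. NRDE-3 was pulled down through its FLAG tag with the M2 antibody from a sonicated lysate, whereas total RNA was extracted with TRIzol. Both libraries hold gel-selected RNA of 20 to 30 nt that was treated with phosphatase and kinase, which lets RNAs with 5′ triphosphates enter. What a pulldown without tagged protein recovers was not analysed here, and the transgene's promoter was not given in the sources used here. Transgene, lysis and pulldown differ together between the libraries, and their effects cannot be told apart. Pulldown of NRDE-3 from eri-1(mg366);3xflag::gfp::nrde-3 embryos after the same cold shock, and total RNA of N2 embryos at 20 °C without cold, served as points of reference, with 1 library each.

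NRDE-3 is a somatic Argonaute protein that binds secondary small interfering RNAs (siRNAs), which RNA-dependent RNA polymerases copy antisense from target transcripts, and enters the nucleus with them to silence pre-mRNAs. In embryos many of its siRNAs depend on primary siRNAs carried by another Argonaute, ERGO-1, whose production needs the exonuclease ERI-1. Antisense ribosomal siRNAs (risiRNAs), which are copied from ribosomal RNA (rRNA), also associate with NRDE-3. siRNAs are read here as antisense reads of rRNA, protein-coding genes, transposons and long RNAs, and microRNAs and fragments of structural RNAs as sense reads.

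The files held 8336035 assigned reads in the total library and 4013277 in the NRDE-3 library. rRNA took 95.6% of the first and 51.8% of the second, which left 368950 and 1933254 non-rRNA reads. Ratios between libraries are therefore given over non-rRNA reads, except for rRNA, where assigned reads were used. In the total library 3 reads correspond to 8.13 per 1000000 non-rRNA reads, and in the NRDE-3 library to 1.55. The brackets after a ratio give its exact binomial 95% interval, which covers counting error only. The tagged gene itself, nrde-3, had 83 sense reads in total RNA and 2926 with NRDE-3, a ratio of 6.73 (5.41 to 8.47). These were 4.89% of all sense reads of protein-coding genes in the NRDE-3 library and 0.0476% in the total library. The embryonic mir-35 family was detected in both libraries with 8 of 8 members, at 8827 and 10666 sense reads. Yolk genes had 4 and 10 antisense reads and sperm protein genes 5 and 11. On the sense strand the yolk genes were abundant, with vit-6 at 1522 reads in total RNA and 310 with NRDE-3, vit-2 at 1346 and 383, and vit-1 at 595 and 102.

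The total library after cold stood apart from total RNA without cold. Antisense reads of protein-coding genes made up 6.94% of its non-rRNA reads and 33.2% without cold. Mitochondrial RNA made up 8.32% against 1.09%, and microRNAs 4.84% against 19.7%. The muscle microRNA mir-1 had 2167 reads after cold and 10 without, and mir-57 had 161 and 39838. The part of these differences in the results was not tested, and the sums of classes and gene lists that moved are also given against total RNA without cold. Ratios of single genes are against total RNA after cold unless stated otherwise, and many are smaller against the other library. In whole embryos, fewer cells of a type and less RNA per cell cannot be told apart.

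Antisense reads of rRNA were far more frequent with NRDE-3 than in total RNA. For 26S rRNA, the RNA of the large ribosomal subunit (I:15064838-15068346, plus strand, build WBcel235), 177 antisense reads were counted in total RNA and 25802 with NRDE-3. Per 1000000 assigned reads these were 21.2 and 6429, a ratio of 303 (261 to 353). Over non-rRNA reads the ratio was 27.8. Sense reads of 26S rRNA went the other way, with 5087601 in total RNA and 1507327 with NRDE-3, a ratio of 0.615 over assigned reads. For each 1000000 sense reads there were 34.8 antisense reads in total RNA and 17118 with NRDE-3. Total RNA without cold had 129 antisense reads, or 20.9 per 1000000 assigned reads, close to the 21.2 after cold.

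The other rRNAs were likewise higher in antisense reads with NRDE-3. For 18S rRNA of the small subunit, whose 2 copies lie at I:15062083-15063836 and I:15069280-15071033, 7 antisense reads stood against 2418, a ratio of 718 (348 to 1786). For 5.8S rRNA (I:15064301-15064453) 23 stood against 2748, a ratio of 248 (165 to 392). Antisense reads were 15.4% of all 5.8S reads with NRDE-3 and 0.0198% in total RNA. The 5S rRNA genes lie apart from the others on chromosome V, and their copies share reads. Over 13 copies, 16 antisense reads stood against 3676, a ratio of 477 (294 to 836). Of these copies, 12 held 275 to 333 antisense reads each with NRDE-3 and 0 to 3 in total RNA, while rrn-4.16, on chromosome I, held 1 in each. A further 3 copies, rrn-4.3, rrn-4.4 and also rrn-4.2, have their strands exchanged in the files, with nearly all reads listed as antisense. Read with their strands exchanged back, they held 4 and 1461 antisense reads. Over non-rRNA reads, the scale used for other genes, the ratios were 65.9 for 18S, 22.8 for 5.8S and 43.85 for the 13 copies of 5S rRNA.

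Some antisense reads of 26S rRNA are also listed under entries drawn on the opposite strand. F31C3.14 (I:15067668-15068355) covers 679 bases at the 3′ end of 26S rRNA, and F31C3.16 covers 289 bases of it when moved by the 7197 bases of 1 repeat unit. With these entries there were 250 antisense reads in total RNA and 31579 with NRDE-3, a ratio of 262 (232 to 298). The 2 entries held 18.3% (17.9 to 18.7) of the antisense reads with NRDE-3 and 29.2% (23.6 to 35.3) of those in total RNA. In the NRDE-3 library of eri-1 their share was 34.0%. The same stretch held 12.1% of the sense reads with NRDE-3, 8.83% in total RNA and 37.7% in the eri-1 library.

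**Figure D1:**
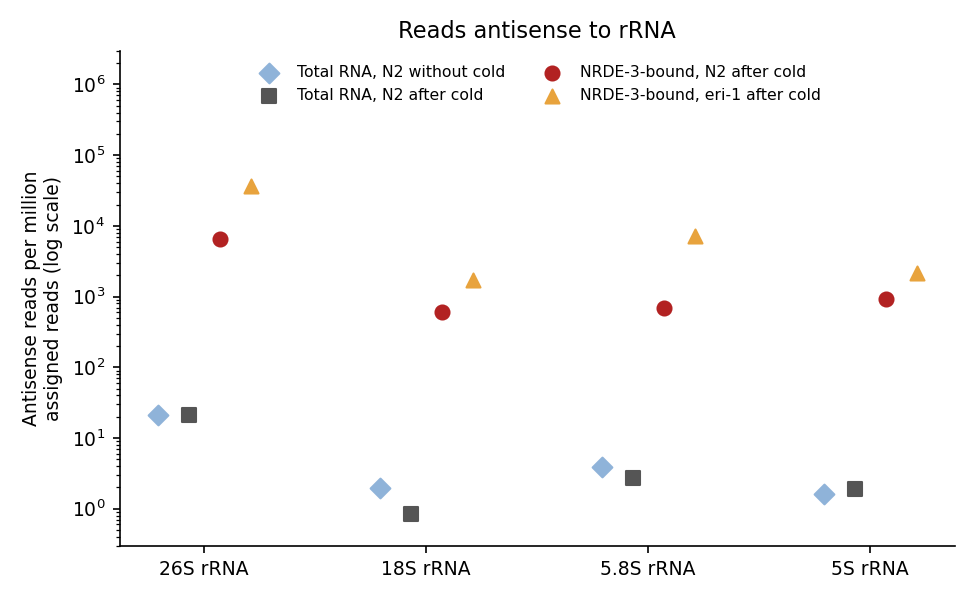
Antisense reads per 1000000 assigned reads (log scale) of 26S, 18S, 5.8S and 5S rRNA in total RNA of N2 without and after cold and in NRDE-3-bound RNA of N2 and eri-1 after cold, 1 point per library. For 26S rRNA the 2 total libraries sit at 20.9 and 21.2, NRDE-3 of N2 at 6429 and NRDE-3 of eri-1 at 36815.

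The NRDE-3 library was almost wholly antisense outside rRNA. Antisense reads made up 94.7% of its non-rRNA reads and 18.7% of those in total RNA. Without cold, total RNA stood at 46.1%. Within protein-coding genes, 96.2% of reads were antisense with NRDE-3 and 12.8% in total RNA. Antisense reads of protein-coding genes were 25622 of the total library and 1536708 of the NRDE-3 library, 6.94% and 79.5% of non-rRNA reads, a ratio of 11.4 (11.3 to 11.6). Against total RNA without cold, with its 33.2%, the ratio was 2.39. Their sense reads, which hold fragments of mRNA, went from 47.2% in total RNA to 3.10% with NRDE-3, a ratio of 0.0655, or 0.129 against total RNA without cold.

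Antisense reads of long intergenic RNAs (lincRNAs) were 1840 in total RNA and 155639 with NRDE-3, 0.499% and 8.05% of non-rRNA reads, a ratio of 16.1 (15.4 to 16.9). Total RNA without cold held 18940, which gave a ratio of 4.55 (4.49 to 4.62). Those of transposons were 1014 and 40565, a ratio of 7.64 (7.17 to 8.13), but total RNA without cold held 17989, against which the ratio was only 1.25 (1.23 to 1.27). Of the 40565, the entries Y60A3A.27, T16A1.9 and T25G12.8 held 15993, 13209 and 7277, so that both ratios rest largely on these entries. Genes that the annotation calls pseudogenes, which the files list within other classes, had 807 and 66223, a ratio of 15.7 (14.6 to 16.8), or 2.04 (2.01 to 2.07) against the 18001 without cold. For the class ncRNA, 444 genes lie opposite a tRNA, snRNA, snoRNA, microRNA or other structural RNA, so that their antisense strand is the sense strand of that RNA. Without those genes the class had 3264 and 88702 antisense reads, a ratio of 5.19 (5.01 to 5.37). Against the 13199 of total RNA without cold the ratio was 3.73. T05E11.9 alone held 269 of the 3264, 75596 of the 88702 and 3544 of the 13199. Both ratios stand above 1 only through this 1 gene. The 444 genes had 36487 and 6260, a ratio of 0.0327, like the structural RNAs themselves. The ratio of the whole class was 0.456, and it turned to 1.19 under DESeq2 size factors.

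**Figure D2:**
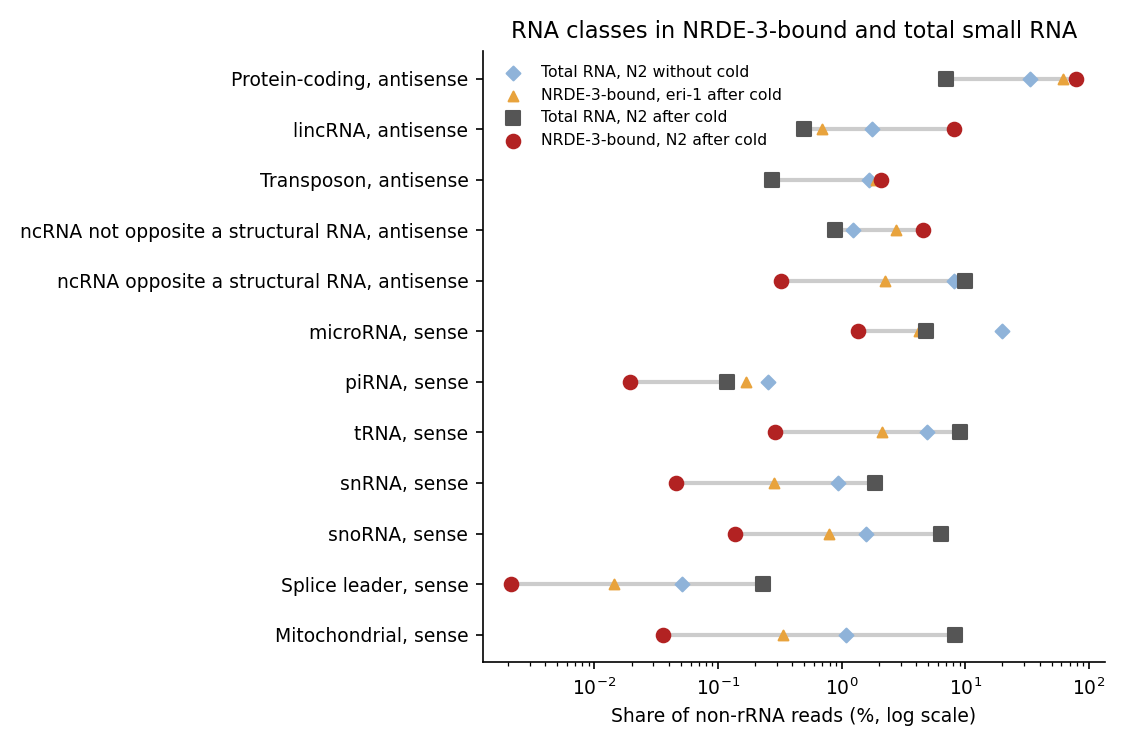
Share of non-rRNA reads (%, log scale) of each RNA class on the strand read for it, in total RNA (squares) and NRDE-3-bound RNA (circles) of N2 after cold, joined by a line, with total RNA without cold (diamonds) and NRDE-3-bound RNA of eri-1 (triangles). Antisense reads of protein-coding genes go from 6.94% to 79.5% and those of lincRNAs from 0.499% to 8.05%, while the sense reads of structural and mitochondrial RNAs go the other way.

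Gene by gene, a gene was called higher or lower where it had at least 50 reads in both libraries together, a ratio of 2 or more, or of 0.5 or less, and an interval excluding 1. Of 1121 genes compared, 337 (30.1%) were higher with NRDE-3 and 676 (60.3%) were lower. Of the 337, 62 had 0 reads in total RNA, 59 of them protein-coding, and met the minimum through the NRDE-3 library alone. Of the 676, 34 had 0 reads with NRDE-3. Of the higher genes, 301 were protein-coding, 14 lincRNAs, 14 ncRNAs, 6 transposons and 2 microRNAs, and 458 protein-coding genes were compared. The lower genes held 218 tRNAs, 209 ncRNAs, 95 snoRNAs, 65 protein-coding genes and 40 snRNAs. Of these ncRNAs, 199 lie opposite a structural RNA, so that their antisense reads are on the strand of that RNA. With all ncRNAs of this kind left out, 337 of 920 genes were higher and 477 lower. None of the compared tRNA, snRNA, snoRNA, splice leader and mitochondrial genes was higher. Over the 2013 genes with at least 20 reads in both libraries together, the median log2 ratio was -1.42, and over the 1043 protein-coding genes among them it was 1.31. Scaling by DESeq2 size factors would add 1.39 to every log2 ratio, TMM factors 1.41 and assigned reads 3.44. Since each scaling tried raises every ratio, no higher call could be lost, and that all 337 held is no check on them. Of the 676 lower calls, 482 held under each scaling tried and 64 turned to higher under at least 1 of them. Against total RNA without cold, 202 of the 337 were higher, 81 were neither and 54 were lower.

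**Figure D3:**
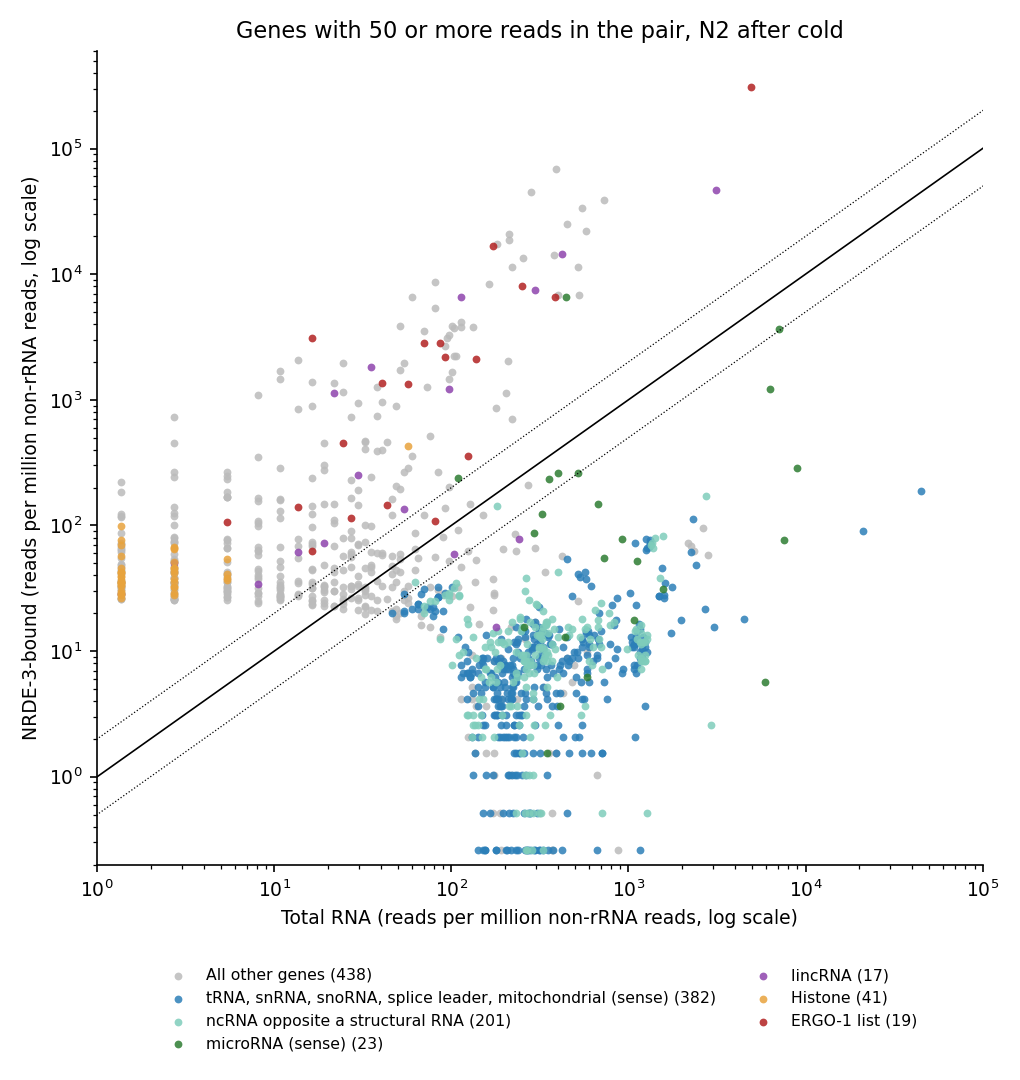
Reads per 1000000 non-rRNA reads in total RNA (x axis) and with NRDE-3 (y axis) for the 1121 genes compared, both on log scales, with the solid line at equal shares and dotted lines at 2-fold; genes without a read are drawn at 0.5 reads. The ERGO-1 list genes (red) other than C44B11.6, and most lincRNAs (purple), lie above the lines. Histone genes (orange) lie above them at low levels in total RNA, and structural RNAs (blue and pale green) lie far below.

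Few genes supplied most of the antisense non-rRNA reads of the NRDE-3 library. In the NRDE-3 library 5 genes held 50% of the antisense non-rRNA reads and 46 genes held 90%. In total RNA these numbers were 100 and 1369, and in NRDE-3 of eri-1 471 and 4120. Genes of the class ncRNA opposite a structural RNA held 36487 of the 69031 antisense reads of total RNA and 6260 of 1830052 with NRDE-3. Of the 50 genes with the most antisense reads with NRDE-3, 3 were among the top 50 of total RNA, 12 among those of total RNA without cold and 1 among those of NRDE-3 from eri-1. Of the top 50 of total RNA, 39 lay opposite a structural RNA, against 0 of the top 50 with NRDE-3.

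**Figure D4:**
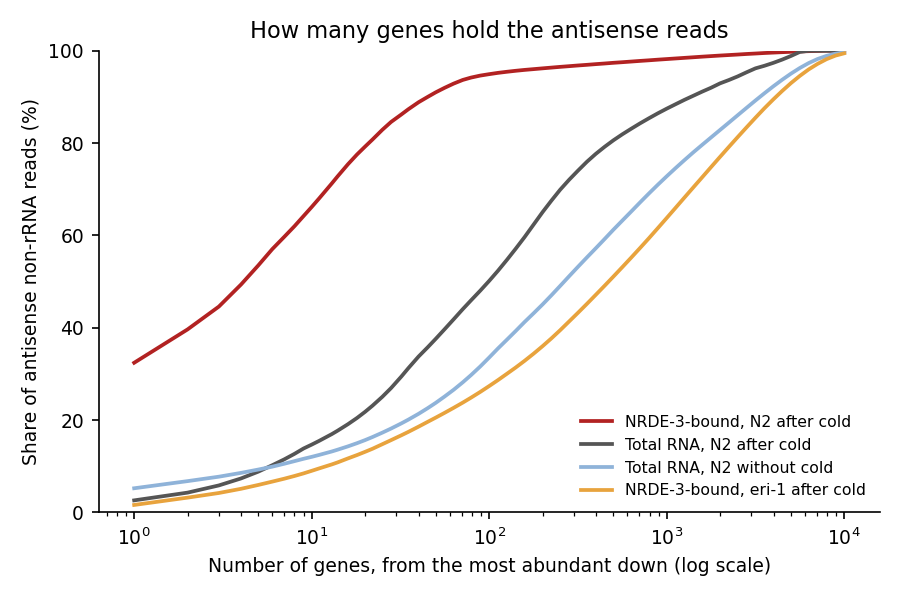
Share of antisense non-rRNA reads (%) held by the most abundant genes, against their number (log scale), in the 4 libraries. The curve of NRDE-3 in N2 starts at 32.4% with 1 gene and passes 91.0% at 50 genes, where the curve of total RNA stands at 37.6%.

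E01G4.5, a protein-coding gene known as a target of ERGO-1 siRNAs, held 30.7% of the non-rRNA reads of the NRDE-3 library. This gene (II:13472401-13473995) had 1804 antisense reads in total RNA and 593290 with NRDE-3, a ratio of 62.8 (59.9 to 65.8). It was also first by antisense reads in total RNA and had 4738 without cold, but only 403 with NRDE-3 of eri-1. Without it the ratio of protein-coding antisense reads was 7.56. Per kilobase of exon, it stood at 224825 reads per 1000000 non-rRNA reads with NRDE-3, above Y13C8A.1 at 99334 and Y116F11A.1 at 71595.

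The second by antisense reads with NRDE-3 was Y116F11A.1 (V:19730580-19732242), with 143 in total RNA and 132322 with NRDE-3, a ratio of 177 (149.9 to 209.5). F49B2.3 (I:14311757-14312842) had 104 and 87577, a ratio of 161 (133 to 197). Both were rare in total RNA, at ranks 85 and 144, far from their ranks 2 and 4 with NRDE-3. F29G9.1 on chromosome V had 201 and 64634 (ratio 61.4), and ZC132.4 had 212 and 42408 (38.2). Y13C8A.1 on chromosome X had 78 and 40328 (98.7), and lido-8 on chromosome II had 78 and 35903 (87.8). All of these, and T05E11.9 with 269 and 75596 (53.6), were also higher than in total RNA without cold and than in NRDE-3 of eri-1. In the eri-1 library they held between 45 and 190 antisense reads.

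VH15N14R.1 (I:7781178-7781647, minus strand) had 165 antisense reads in total RNA and 48413 with NRDE-3, a ratio of 56.0 (48.1 to 65.6). It lies within H15N14.4, a pseudogene on the plus strand that the files do not count. Its antisense reads are therefore on the sense strand of H15N14.4, and the 2 cannot be told apart.

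Among genes with 200 or more reads, the 10 highest by the interval bound nearest 1 also held genes of low level in total RNA. Y43F8B.9 had 6 reads against 5999 (ratio 191, 87.6 to 520.2), and Y17D7C.6 had 5 against 4024 (154, 65.8 to 473). Y9D1A.1, which the annotation calls a lincRNA, had 22 against 12738 (110.5, 73.0 to 176), and Y116A8B.1 had 30 against 16781 (107, 74.8 to 158). H37A05.4 had 67 against 33356 (interval 74.8 to 123) and W04B5.2 had 63 against 32295 (97.8, 76.4 to 127). Their ratios were smaller against total RNA without cold, at 31.7, 34.3, 17.3, 10.8, 10.8 and 17.2 in this order. In NRDE-3 of eri-1 these 6 genes held 1 to 63 antisense reads each.

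Genes of the ERGO-1 target list were higher almost throughout. Of 25 names, 20 were found and 19 had reads. Of these, 18 were higher with NRDE-3, 0 were lower and 1 was neither. Among all genes compared 30.1% were higher, and among protein-coding genes, also read on the antisense strand, 301 of 458. The median log2 ratio over the 19 was 4.15, with a range of 0.40 to 7.46. Their antisense reads summed to 2410 in total RNA and 686988 with NRDE-3, 0.653% and 35.5% of non-rRNA reads, a ratio of 54.4 (52.3 to 56.6). Without E01G4.5 it was 29.5, and against the 12664 reads of total RNA without cold it was 30.1. The sum in NRDE-3 of eri-1 was 570 reads.

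Members spanned a wide range of levels. Y37E11B.2 had 92 antisense reads in total RNA and 15500 with NRDE-3 (ratio 32.2, 26.2 to 39.9), and F55C9.3 had 142 and 12622 (16.96, 14.4 to 20.2). W04B5.1, next to W04B5.2 on chromosome III, had 51 and 4065 (15.2, 11.6 to 20.5). The neighbours ZK402.5, ZK402.3 and ZK402.2 on chromosome X had 21 and 2578, 15 and 2624, and 2 and 205. The lowest was C44B11.6, with 30 and 211 (1.34, 0.913 to 2.04), the member that was not called. Of the 18 higher members, 14 were also higher than in total RNA without cold and 4 were neither. Among the latter, F55C9.5 had 46 reads after cold, 590 without cold and 686 with NRDE-3, and ZK402.2 had 96 without cold.

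**Figure D5:**
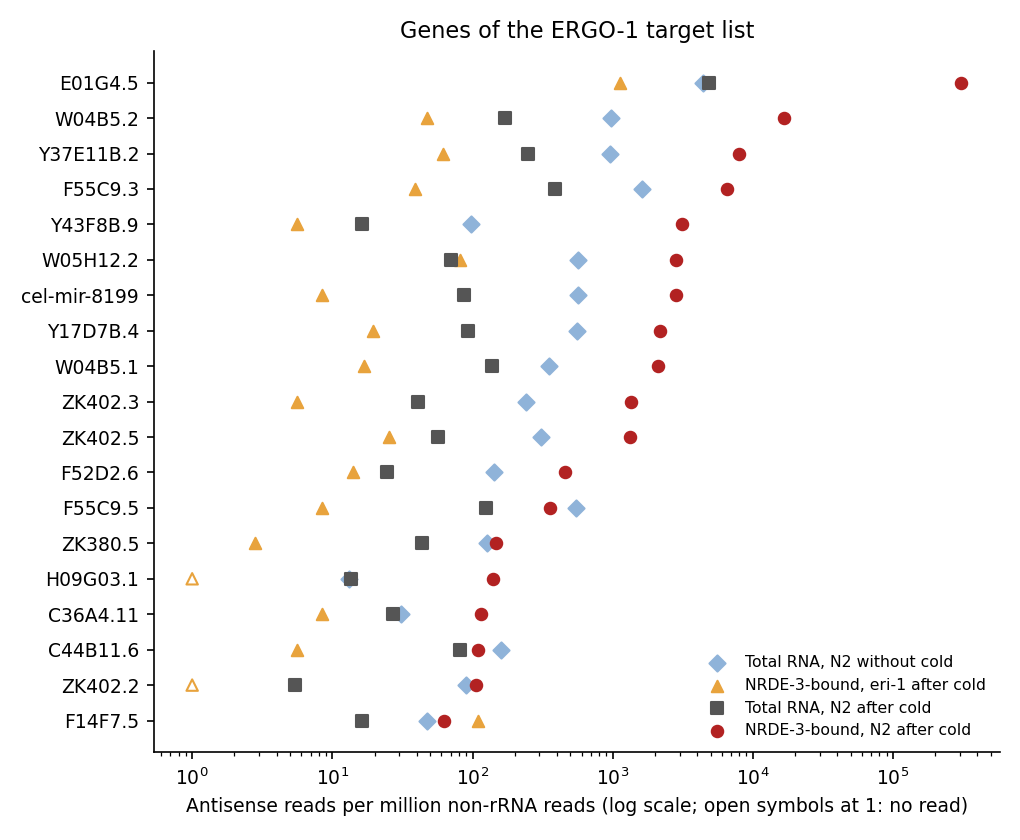
Antisense reads per 1000000 non-rRNA reads (log scale) of the 19 ERGO-1 list genes with reads in the 4 libraries; open symbols mark libraries without a read, and cel-mir-8199 is the annotation's name for C40A11.10. NRDE-3 of N2 (circles) lies right of total RNA after cold (squares) for all 19 genes, and NRDE-3 of eri-1 (triangles) lies left of it for all but W05H12.2 and F14F7.5.

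Of all genes compared 30.1% were higher and 60.3% lower, and of 458 protein-coding genes 301 were higher and 65 lower. Of the lincRNAs, 14 of the 17 compared were higher with NRDE-3, 2 were lower and 1 was neither. Of these 14, 9 were higher, 4 were neither and 1 was lower against total RNA without cold. linc-22 (X:9069138-9073735) was at rank 3 with NRDE-3 and rank 2 in total RNA, with 90379 and 1159 antisense reads, a ratio of 14.9, and it had 7647 without cold. linc-16 had 155 in total RNA and 28085 with NRDE-3 (34.6, 29.5 to 40.8), linc-11 had 109 and 14559 (25.5), and linc-12 had 42 and 12785. linc-68 and linc-17, which adjoin on chromosome II, had 13 and 3515, and 8 and 2208. The lower ones were linc-29, with 89 and 150, and linc-9, with 66 and 30. Neither of these lower calls held under every scaling, and 1 turned to higher. Against NRDE-3 of eri-1, 12 of the 14 were higher in N2 and 2 were lower.

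Among all genes compared 30.1% were higher and 60.3% lower, and among 458 protein-coding genes 301 were higher and 65 lower. Of 13 transposon entries compared, 6 were higher, 2 were lower and 5 were neither. Of the 6, 5 were higher and 1 was lower against total RNA without cold. Neither of the 2 lower calls held under every scaling. Over the 30 transposon entries with at least 20 reads in both libraries together, the median log2 ratio was -1.04, against -1.42 over all genes with as many reads. Y60A3A.27 had 60 antisense reads in total RNA and 15993 with NRDE-3 (50.9, 39.5 to 66.7). T16A1.9 had 148 and 13209 (17.03, 14.5 to 20.2) and T25G12.8 had 49 and 7277 (28.3, 21.4 to 38.4). These entries matched no gene of the annotation, so that no coordinates are given. Among pseudogenes, 17 of 26 compared were higher and 4 lower, and 14 of the 17 were also higher than in total RNA without cold, with Y51H7C.15 at 38 and 7228 (36.3) and W05H12.2 at 26 and 5478 (40.2).

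Of the 260 higher protein-coding genes that are not histones, 257 were in the annotation, and 47.5% of these carried a gene name of the class type rather than a clone name, against 54.0% of all protein-coding genes in the files. Their median length was 1419 exon bases over 5 exons, against 1165 and 5 for all in the files. Among protein-coding genes that met the same minimum of reads they were not longer. The medians were 1413 and 5 for all compared, histones included, 1846 and 6 for the lower ones, and 1736 and 6 for those called neither. With histones left out, the largest run of higher genes with gaps of at most 10000 bases held 7 genes, at V:19478152-19491820. It starts with Y43F8B.9 and holds Y43F8B.22, Y43F8B.17, Y43F8B.28, Y43F8B.18, Y43F8B.7 and Y43F8B.29. Genes that overlap may share reads.

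Histone genes had few antisense reads in total RNA and more with NRDE-3. Of 72 genes, 41 were compared and all 41 were higher, beside 301 of 458 protein-coding genes and 30.1% of all genes compared. These 41 held 51 to 836 antisense reads with NRDE-3, with a median of 75, and 22 of them had 0 in total RNA. Apart from his-24, none had more than 2 reads in total RNA. Each of the 41 met the minimum of 50 reads through the NRDE-3 library alone. With so few reads in total RNA, any gene meeting this minimum is called higher, so that 41 of 41 is no check. Over the list the sums were 49 and 4869, a ratio of 18.96 (14.3 to 25.7). Total RNA without cold held 2015, 1794 of them of his-24, and the ratio against it was 1.34 (1.27 to 1.41). Gene by gene, 38 of the 41 were higher, 1 was lower and 2 were neither against that library, where 37 of the 41 had fewer than 10 reads. The median log2 ratio of the 55 with at least 20 reads was 3.99, or 2.29 with genes at 0 in total RNA set to 3 reads. Since histone copies share reads, their number is not a number of independent genes. his-24, a linker histone, had 21 and 836 (7.60, 4.94 to 12.3), and was lower against total RNA without cold (0.258). F54E12.5 had 0 and 190, at least 12.1-fold higher with 3 reads as the floor in total RNA. In NRDE-3 of eri-1 the list had 12489 reads, 3.49% of non-rRNA reads against 0.252% in N2.

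Genes of the small RNA machinery were called in both directions. Of 19 Argonaute genes found, 5 were compared, and the median log2 ratio of the 6 with at least 20 reads was 0.14. It was 1.31 over all protein-coding genes with as many reads, and -1.42 over all genes, which include structural RNAs read on the sense strand. nrde-3 was higher in antisense reads, with 22 and 685 (5.94, 3.89 to 9.55), as was alg-1, a microRNA Argonaute, with 1 and 74 (14.1, 2.46 to 565). ppw-2, a germline Argonaute, was lower, with 42 and 8 (0.0364), and hrde-1 and wago-4, both germline Argonautes, were neither. Both of these were lower against total RNA without cold (0.158 and 0.157), where the ratio of the list's sum was 0.504 in place of 1.88. The list summed to 102 antisense reads in total RNA and 1007 with NRDE-3. Of these, nrde-3, the tagged gene, held 22 and 685, and the list's ratio of 1.88 stands above 1 only through nrde-3. Among the genes of siRNA synthesis and nuclear RNAi, eri-6 had 47 and 287 (1.17, 0.854 to 1.62) and rde-12 had 9 and 63 (1.34, 0.661 to 3.06), neither of them called, with a median log2 ratio of 0.10 over 4 genes. Each was lower against total RNA without cold (0.121 and 0.472). The list of germline WAGO targets had 2 genes compared, both lower: F15D4.5 with 51 and 103 (0.385) and bath-45 with 64 and 54 (0.161). The median log2 ratio of its 4 genes was -1.58. Over assigned reads F15D4.5 turned to higher, at 4.19, and bath-45 was at 1.75, which is neither. Both were lower against total RNA without cold. Of 28 maternal germline genes 1 was compared: mex-5, an embryonic polarity gene, was lower, with 214 and 19 (0.0169), but had 21 without cold, too few to compare, while the median log2 ratio of the 7 with at least 20 reads was 0.16. No ribosomal protein gene reached 50 reads, and the 79 of them summed to 31 and 513 antisense reads (3.16, 2.20 to 4.70). Against the 727 reads of total RNA without cold the ratio reversed to 0.391 (0.349 to 0.439). Heat shock genes summed to 51 and 277 (1.04, 0.767 to 1.43) and cuticle collagens to 84 and 124 (0.282, 0.212 to 0.376), the latter 3.07 over assigned reads. These ratios were 0.154 (0.134 to 0.176) and 0.119 against total RNA without cold. Median log2 ratios were 1.68 over 6 ribosomal protein genes, 1.39 over 6 heat shock genes and -2.47 over 4 collagens.

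Fragments of structural RNAs were scarce with NRDE-3, with sums lower by every scaling tried. tRNAs had 33436 sense reads in total RNA and 5614 with NRDE-3, 9.06% and 0.290% of non-rRNA reads, a ratio of 0.0320, or 0.349 over assigned reads. Of 219 tRNA genes compared, 218 were lower, beside 60.3% of all genes compared, and their copies share reads. snoRNAs had 23594 and 2647 (0.0214), with 95 of 95 genes lower. snRNAs had 6897 and 877 (0.0243), with 40 of 40 lower, and splice leader RNAs 854 and 41 (0.00916), with 8 of 8 lower. Against total RNA without cold the ratios were less extreme, at 0.0597 for tRNAs, 0.0866 for snoRNAs, 0.0490 for snRNAs and 0.0419 for splice leader RNAs. Under every scaling, 154 of the 218 tRNA calls, 84 of the 95 snoRNA calls and 33 of the 40 snRNA calls held, and 20, 1 and 0 turned to higher under at least 1.

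Against total RNA after cold, the lowest ratio of any class was that of mitochondrial RNA. It had 30688 sense reads in total RNA and 694 with NRDE-3, 8.32% and 0.0359%, and was 232-fold lower (215 to 250.2). All 20 mitochondrial genes compared were lower. The small and large mitochondrial rRNAs, MTCE.7 and MTCE.33, had 16565 and 366, and 7745 and 173. The tRNA MTCE.10 had 429 and 0, at least 749-fold lower, but had only 8 without cold. Total RNA without cold held 11723 mitochondrial reads, 1.09% of non-rRNA reads, and against it the NRDE-3 library was 30.5-fold lower (28.2 to 32.9). piRNAs, which the Argonaute PRG-1 carries in the germline, had 439 sense reads and 377, a ratio of 0.164 that turned to 1.78 over assigned reads and was 0.0771 against total RNA without cold.

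MicroRNAs, which ALG-1 and ALG-2 carry, had 17867 sense reads in total RNA and 26154 with NRDE-3. These were 4.84% and 1.35% of non-rRNA reads, a ratio of 0.279 (0.274 to 0.285), but 3.04 over assigned reads and 0.0687 against total RNA without cold. Of 23 microRNAs compared, 2 were higher, 17 lower and 4 neither, beside 30.1% higher and 60.3% lower among all genes compared. Of the 17, 9 held under every scaling and 4 turned to higher under at least 1, and 13 were also lower against total RNA without cold. The most abundant with NRDE-3 was mir-260 (II:3306234-3306336, plus strand), with 163 and 12646 reads, a ratio of 14.8 (12.7 to 17.4). It lies opposite F39E9.7 (II:3306144-3307505, minus strand), a pseudogene of the ERGO-1 target list that the files do not count. Reads antisense to F39E9.7 and sense reads of mir-260 cannot be told apart there, and in NRDE-3 of eri-1 they numbered 11. Without mir-260 the microRNAs had 17704 and 13508 reads, a ratio of 0.146.

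The microRNAs left did not keep their proportions. mir-35 had 2618 in total RNA and 7098 with NRDE-3 (0.517) and mir-40 had 191 and 508 (0.508), neither of them called, though both were lower against total RNA without cold (0.134 and 0.0253). Other members of this family were lower. mir-37 had 2337 and 2366 (0.193) and mir-39 had 3286 and 549 (0.0319), at lower shares. The whole mir-35 family had a ratio of 0.231, or 2.51 over assigned reads and 0.115 against total RNA without cold. The mir-58 family had 3811 and 310 (0.0155), and was lower under every scaling tried. mir-1 was 1032-fold lower (576 to 2071), with 2167 and 11. Total RNA without cold held only 10 reads of mir-1, against which the ratio was 0.610 (0.235 to 1.60), too few reads for a call. The ncRNA T09B4.14, on the strand opposite mir-1, had 1077 and 5 antisense reads, which lie on the strand of mir-1. mir-51 was higher, with 40 and 459 (2.19, 1.58 to 3.11), but total RNA without cold held 1767, against which it was lower (0.144).

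Other families of microRNAs took smaller shares of non-rRNA reads with NRDE-3 than in total RNA. Against total RNA without cold the sums were lower too, at 0.0460 for the mir-51 family, 0.796 for the let-7 and lin-4 families and 0.000752 for microRNAs of differentiated tissues. The mir-51 family summed to 154 and 511 reads (0.633, 0.528 to 0.763), or 6.89 over assigned reads. The let-7 and lin-4 families, which time larval development, summed to 316 and 306 (0.185, 0.157 to 0.217), or 2.01 over assigned reads. MicroRNAs of muscle, neurons and other differentiated tissues summed to 2514 and 69 (0.00524), and were lower over assigned reads too, at 0.0570. Of these reads, mir-1 alone held 2167 and 11. In total RNA without cold, mir-57 alone held 39838 of 50895 reads, so these sums rest largely on mir-1 and mir-57. The median log2 ratios were -3.72 over 7 members of the mir-35 family, -3.04 over 5 of the mir-51 family and -5.57 over 4 of the mir-58 family. They were -4.92 over 3 members of the let-7 and lin-4 families and -5.05 over 5 tissue microRNAs.

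Some protein-coding genes abundant in antisense reads of total RNA were not carried over. T05A7.6 was at rank 4 in total RNA, with 1044 antisense reads, and had 113 with NRDE-3 (0.0207, 0.0169 to 0.0251). clec-38, named as a C-type lectin gene, had 830 and 133 (0.0306), and pals-26 had 798 and 140 (0.0335). dep-1, which encodes a receptor tyrosine phosphatase, had 321 and 0, at least 561-fold lower. T05A7.6, clec-38 and dep-1 had 0, 2 and 0 antisense reads in total RNA without cold, against which T05A7.6 and clec-38 were higher with NRDE-3. Of the 65 lower protein-coding genes, 25 had fewer than 10 antisense reads in total RNA without cold, and 31 were also lower against that library. Only 30 of the 65 held under every scaling, and 23 turned to higher under at least 1.

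The NRDE-3-bound RNA of N2 differed from that of eri-1 after the same cold shock, again with 1 library each. Of 1586 genes compared, 153 (9.65%) were higher in N2 and 1413 (89.1%) were lower over non-rRNA reads. Under DESeq2 size factors these counts were 356 and 360. Of the 337 genes higher with NRDE-3 than in total RNA of N2, 151 were higher in N2 than in eri-1, 169 were lower and 17 were neither, and under size factors 203 were higher and 5 lower. These 337 genes held 92.1% of non-rRNA reads with NRDE-3 in N2 and 19.9% in eri-1. Of the ERGO-1 list, 17 of the 18 higher members were higher in N2 than in eri-1, and F14F7.5, with 121 and 39 reads, was neither. All 41 histone genes were lower in N2, but under size factors 5 were higher and 0 lower. Antisense reads of 26S rRNA were 211280 in eri-1, 36815 per 1000000 assigned reads, 5.73-fold above N2. The ncRNA F39D8.7, with 9 antisense reads in total RNA and 3792 with NRDE-3 in N2, had 4011 in eri-1, where it was second by reads.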

How the data were processed

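Per the file headers, the deposited files hold whole-number counts of reads, sense and antisense, for each transcript or RNA. Alignment was with Bowtie2 per the submitters' processing notes, with its version, the genome build and the treatment of reads with several matches not given in the sources used here. Over all, 56374 entries were summed to 45510 genes, of which 44852 matched Ensembl 115 (WBcel235), the source of all coordinates. Truncated lines, 0 to 3 in a library, were left out.

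Ratios of shares have exact conditional binomial (Clopper-Pearson) 95% intervals. A count of 0 was set to 3 reads for the bound of a fold. Log2 ratios had 0.5 reads added to both counts. The 16 gene lists were described by counts of calls and by the median over members with 20 or more reads. The members and lists were chosen with earlier results of these data known.

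The genes named were nrde-3, all rRNA genes, the 10 genes with the most antisense reads in each library, the 10 highest and 10 lowest ratios among genes with 200 or more reads, the 5 most abundant microRNAs of each library and the 3 members of each list or class with the most reads. Other genes named (further list and class members, neighbours, pseudogenes opposite a named gene) were chosen after their values were seen.

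Alternatives were the denominator (assigned reads, microRNA reads, DESeq2 1.42.0 size factors, edgeR 4.0.16 TMM factors), the minimum of reads, the strand and the comparator. Python 3.11.15, SciPy 1.17.1, pandas 2.3.3 and R 4.3.3 were used, and the calls were tested on simulated data.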

Additional observations from a re-analysis of the deposited data

Results flagged for a closer look

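Reads on the strand opposite to the one read for a class were flagged where they were more frequent with NRDE-3 than in total RNA. Reads antisense to tRNAs numbered 1 in total RNA and 525 with NRDE-3, a ratio of 100 (17.9 to 3965), in 196 of 615 genes. In NRDE-3 of eri-1 there were 884, and in total RNA without cold 57, against which the ratio was 5.11 (3.88 to 6.83). Reads antisense to snRNAs numbered 15 and 327, a ratio of 4.16 (2.49 to 7.52). By contrast, those antisense to snoRNAs numbered 693 and 1260, a ratio of 0.347.

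Single genes with such reads were also flagged. A snoRNA at IV:14780839-14780933 had 6 antisense reads in total RNA and 467 with NRDE-3, and 0 sense reads in both. The snoRNA F47E1.19 had 12 and 128, and it lies within linc-22 on the same strand, so that its antisense reads are also those of linc-22. The snRNAs T27E4.12 and T27E4.22, which overlap on chromosome V, had 120 and 119 with NRDE-3 and 0 and 1 in total RNA. The snoRNAs ZC395.12 and ZK185.9 had 104 and 100 with NRDE-3 and 1 each in total RNA. The tRNA R02E12.t1 had 81 with NRDE-3 and 0 in total RNA, at least 5.15-fold higher with 3 reads as the floor.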

How the results depend on the processing

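With 1 library per group, intervals cover counting error only, no library was left out, and depth limits the low side: 3 reads in total RNA are 8.13 per 1000000 non-rRNA reads. No paired analysis was possible because each group has 1 library.

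The 337 higher genes of 1121 compared became 509 of 1121 over assigned reads. They became 221 of 2284 against total RNA without cold and 147 of 347 with a minimum of 200 reads. The 676 lower genes of 1121 became 1906 of 2284 against total RNA without cold and 1995 of 10935 with no minimum. They became 1030 of 2013 with a minimum of 20 and 188 of 347 with one of 200. With strands summed they were 1765 of 2203, and with antisense reads for every class 281 of 725. The ratio of antisense 26S rRNA was 27.8 over non-rRNA reads, 492 over sense 26S reads and 99.6 over microRNA reads. That of the ERGO-1 list was 592 over assigned reads, 195 over microRNA reads, 142.5 under DESeq2 factors, 144.5 under TMM, 30.1 against total RNA without cold and 29.5 without E01G4.5. The microRNA sum reversed to 3.04 over assigned reads, and was 0.430 without the ERGO-1 list in the denominator, 0.732 under DESeq2 factors, 0.742 under TMM, 0.0687 against total RNA without cold and 0.146 without mir-260. Protein-coding antisense reads gave 125 over assigned reads, 41.0 over microRNA reads, 78.6 over microRNA reads without mir-260, 30.0 under DESeq2 factors, 30.4 under TMM, 2.39 against total RNA without cold and 7.56 without E01G4.5. The use of microRNA reads without mir-260 and the removal of E01G4.5 or mir-260 were chosen after seeing the data.

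Reversed were the ncRNA class (4.96 over assigned reads, 1.63 over microRNA reads, 3.13 without mir-260 in them, 1.19 under DESeq2, 1.21 under TMM), piRNAs (1.78 over assigned reads, 1.13 over microRNA reads without mir-260), the median log2 ratio of WAGO targets over microRNA reads (0.26), those of maternal genes (-5.85) and the mir-51 family (1.11) with a minimum of 50 reads, and 4 genes over assigned reads and over microRNA reads without mir-260: F15D4.5 (4.19, 2.65; also 1.01 under DESeq2 and 1.02 under TMM), bath-45 (1.75, 1.11), let-7 (2.41, 1.52) and mir-37 (2.10, 1.33). The cause was not tested beyond the change of denominator or minimum itself.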

Other observations

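pkd-2, a gene of male sensory neurons, had the most antisense reads of any gene in total RNA of N2 without cold, with 25839. It had 58 in total RNA after cold and 7 with NRDE-3. This gene was chosen after its values were seen.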
